A study of Rattus norvegicus with 22 samples.

Results

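The genes described here encode 10 receptors for neuropeptides and amines: the 4 opioid receptors Oprl1, Oprm1, Oprk1 and Oprd1, the tachykinin receptors Tacr3 and Tacr1, the muscarinic acetylcholine receptors Chrm1 and Chrm3, and the serotonin receptors Htr1a and Htr2a. They were chosen by name, as neuromodulator receptors, from the 17172 genes of the count table, with the comparisons of injured and sham rats already known, so their values in those comparisons are given as a description. Of the 10 genes, 9 had enough counts to be among the 12875 genes tested. Oprk1 did not, with 1 to 12 counts per sample.

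RNA was sequenced from the hippocampus on the injured side of adult male Sprague-Dawley rats, an outbred wild-type strain. Traumatic brain injury (TBI) was a moderate lateral fluid percussion, in which a pulse of fluid strikes the exposed dura, delivered over the right hemisphere. Sham animals went through the operation and its anesthesia but received no percussion. Tissue was taken 1 day later from 2 sham and 4 injured animals and 14 days later from 4 of each kind, and total counts per sample ran from 15065540 to 23743703. The tissue was the whole hippocampus, so fewer cells of a type and less RNA per cell cannot be told apart.

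All 10 receptors span the membrane 7 times and signal through heterotrimeric G proteins. Opioid receptors and the serotonin receptor 1A act mainly through Gi/o, which opens inwardly rectifying potassium channels and lowers cyclic AMP. The tachykinin receptors, the muscarinic M1 and M3 receptors and the serotonin receptor 2A act mainly through Gq, which activates phospholipase C. In the hippocampus M1 and serotonin 1A receptors are abundant on principal neurons, and several opioid and tachykinin receptors are found on interneurons.

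Several libraries stood apart. TBI day 1 replicate 1 had the lowest value of its group in 7 of the 9 tested receptors and in 4899 of all tested genes (38.1%). Markers of choroid plexus, the tissue that secretes cerebrospinal fluid, were high in sham day 1 replicate 1 and in TBI day 14 replicates 2 and 3. Their summed level was 1529 to 8621 CPM (counts scaled to a common library size) in those 3 libraries and at most 24.1 CPM in any other.

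Of the tachykinin receptors, Tacr3 was called after injury and Tacr1 was not, and the difference between the 2 genes was not tested. Tacr3 encodes the neurokinin 3 receptor, which prefers neurokinin B, and it was lower after injury at both days. Tacr1 encodes the neurokinin 1 receptor for substance P, and edgeR called it in no comparison. Tacr3 was at 3.34 and 5.58 CPM in the sham day 1 rats and at 1.14, 1.70, 3.16 and 1.97 CPM in the TBI day 1 rats. All 4 injured rats lay below both sham rats, the highest of them only just. The fitted log2 fold change was -1.16 (SE 0.36, adjusted p = 0.0363), 55.2% lower. Tacr3 at day 14 was at 3.93, 5.77, 4.22 and 6.86 CPM in sham rats and at 1.86, 2.17, 2.29 and 1.58 CPM in TBI rats. The groups did not overlap, and the TBI rats lay closer together than the sham rats. Fitted on the log2 scale, Tacr3 at day 14 changed by -1.39 (SE 0.31, adjusted p = 0.015), or 61.9% lower.

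These calls were close to the threshold of 0.05. At day 1 Tacr3 lost its call without sham day 1 replicate 2 (log2 fold change -0.74, adjusted p = 0.395), TBI day 1 replicate 1 (-0.97, adjusted p = 0.061) or TBI day 1 replicate 2 (-1.09, adjusted p = 0.0727), and, through the shared estimate of the spread, without sham day 14 replicate 2 (adjusted p = 0.0505). At day 14 its adjusted p was 0.0676 with choroid plexus markers as a covariate and 0.055 without the 3 libraries that held those markers. The difference between the log2 fold changes at the 2 days was 0.23 (SE 0.48, adjusted p = 0.825), with a 95% interval of -0.80 to 1.27.

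Tacr1 was at 3.45 and 5.99 CPM in sham and 3.01, 4.91, 4.58 and 6.00 CPM in TBI rats at day 1. At day 14 it was at 4.85, 5.83, 8.44 and 8.71 CPM in sham and 5.84, 5.45, 4.52 and 4.96 CPM in TBI rats. The groups overlapped at both days. Its log2 fold change was -0.03 (95% interval -0.70 to 0.64, adjusted p = 0.957) at day 1 and -0.43 (95% interval -0.97 to 0.12, adjusted p = 0.567) at day 14. The day 1 value changed sign to 0.13 without TBI day 1 replicate 1 and to 0.43 without sham day 1 replicate 2.

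The sequences upstream of both tachykinin receptor genes are shown because the pair share a transmitter family and only Tacr3 was called against sham of the same day. They are the 250 bases before the annotated start in RefSeq on the rat build GRCr8, on the strand of the gene. The counts were made on the older build rn5. Tacr3 starts after chr2:225940247-225940496 and Tacr1 after chr4:116478367-116478616, both on the plus strand. Capitals mark every match, on either strand, to the letters TGACG of the cyclic AMP response element half-site. They also mark, again on either strand, the letters TATAAA of the TATA box.
Tacr3: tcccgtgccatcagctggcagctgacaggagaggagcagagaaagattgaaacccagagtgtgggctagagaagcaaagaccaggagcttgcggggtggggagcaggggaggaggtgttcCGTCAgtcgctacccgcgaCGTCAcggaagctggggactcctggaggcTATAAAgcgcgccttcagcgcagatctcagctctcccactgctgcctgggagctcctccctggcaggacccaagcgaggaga
Tacr1: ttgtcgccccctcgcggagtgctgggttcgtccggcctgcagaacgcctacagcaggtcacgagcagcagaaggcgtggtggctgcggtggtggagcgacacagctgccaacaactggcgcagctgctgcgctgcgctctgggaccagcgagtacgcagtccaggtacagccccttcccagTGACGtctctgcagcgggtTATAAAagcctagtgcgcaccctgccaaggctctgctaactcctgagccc
Tacr3 held 2 half-site matches and Tacr1 held 1, and each held 1 TATA match. Over 33469 windows of this length in the same annotation, 18.2% held the half-site letters and 12.9% the TATA letters. These are letter matches, not measured binding sites.

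Among the opioid receptors, Oprl1 was the 1 called at day 14. It encodes the nociceptin receptor, which binds nociceptin and not the classical opioid peptides. At day 1 Oprl1 was at 20.9 and 28.0 CPM in sham rats and at 21.4, 22.8, 19.3 and 16.8 CPM in TBI rats. Those groups overlapped, with a log2 fold change of -0.29 (95% interval -0.65 to 0.08, adjusted p = 0.25). At day 14 it was at 26.6, 30.8, 30.7 and 33.9 CPM in sham rats and at 18.7, 23.0, 19.2 and 18.2 CPM in TBI rats. All 4 injured rats lay below all 4 sham rats. On the log2 scale the fitted change was -0.63 (SE 0.14, adjusted p = 0.0154), 35.3% lower. It lost its call with choroid plexus markers as a covariate (adjusted p = 0.0689), and it kept it without the 3 libraries that held those markers. The call was also lost without any 1 of 5 of the 8 day 14 libraries (adjusted p up to 0.0661). The difference between its log2 fold changes at the 2 days was 0.34 (SE 0.22, adjusted p = 0.427).

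Oprm1 and Oprd1 had few reads. Oprm1, which encodes the mu receptor for morphine and beta-endorphin, had 17 and 51 counts in sham rats and 2, 21, 11 and 13 counts in TBI rats at day 1. As CPM, which allow for library size, the injured rats reached 0.852 and the sham rats began at 0.916, so the groups were apart by little. The log2 fold change was -1.65 (SE 0.60), and the adjusted p of 0.0672 missed the threshold. It passed without sham day 1 replicate 1 (-2.16, adjusted p = 0.0344) or TBI day 1 replicate 2 (-2.01, adjusted p = 0.0477), and by DESeq2 (adjusted p = 0.042). Without sham day 1 replicate 2 it was -0.81 with an adjusted p of 0.612. At day 14 Oprm1 had 12 to 44 counts in sham rats and 14 to 34 in TBI rats, and its log2 fold change was -0.26 (95% interval -1.32 to 0.80).

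Oprd1 encodes the delta receptor, whose main ligands are the enkephalins. It was at 0.70 and 1.52 CPM in sham and 0.571, 0.568, 0.458 and 0.671 CPM in TBI rats at day 1, again without overlap. At day 14 sham rats were at 1.31 to 1.63 CPM and TBI rats at 0.796 to 1.11 CPM, also without overlap. The log2 fold change was -0.97 (SE 0.37, adjusted p = 0.0777) at day 1 and -0.65 (SE 0.30, adjusted p = 0.367) at day 14, and neither passed. Without sham day 1 replicate 1 the day 1 value was -1.41 and passed (adjusted p = 0.021), and without sham day 1 replicate 2 it was -0.30 (adjusted p = 0.762). Day 1 counts were 13 and 33 in sham and 10 to 15 in TBI rats. Oprk1, which encodes the kappa receptor for dynorphin, had 1 and 5 counts in sham and 2 to 5 in TBI rats at day 1, and 3 to 12 in sham and 5 to 8 in TBI rats at day 14. A difference in Oprk1 was not detectable at this depth.

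**Figure D1:**
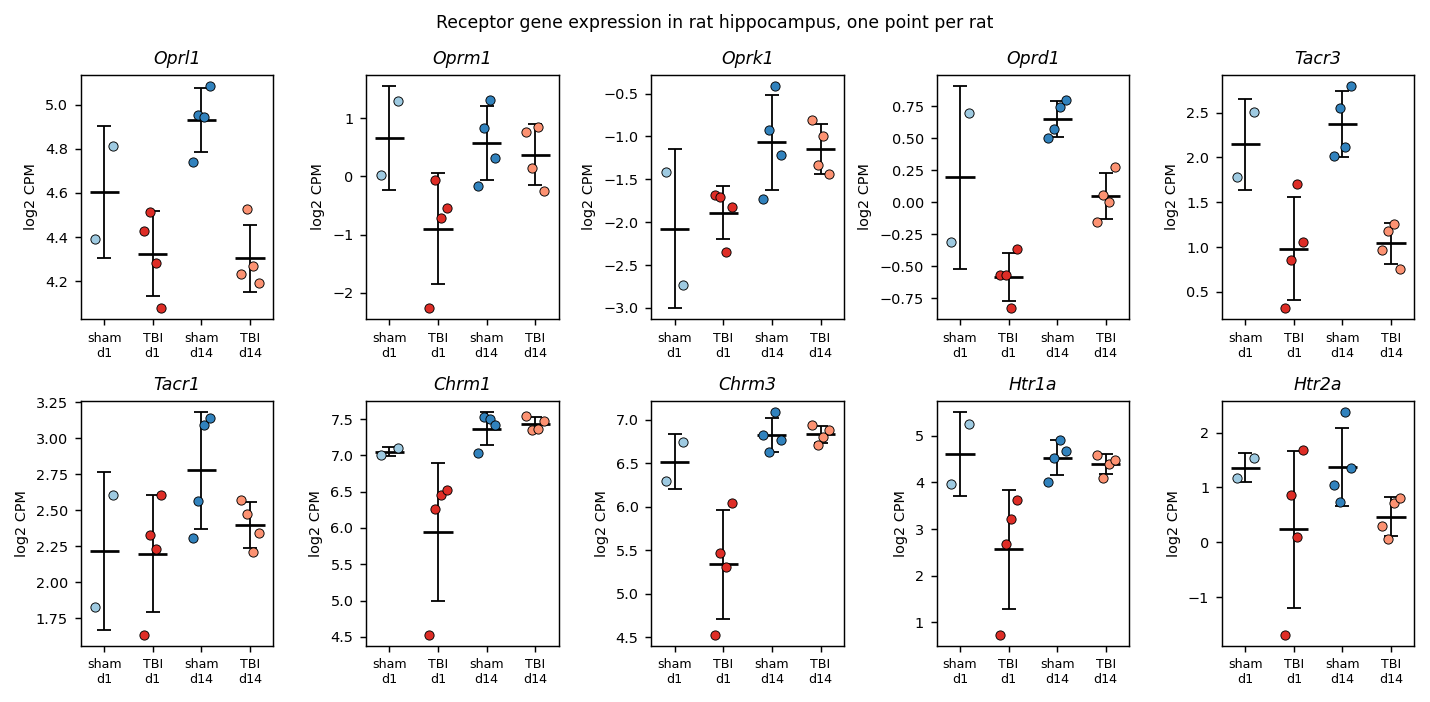
Expression of the 10 receptor genes by group. Each point is 1 rat, the y axis is log2 CPM with a prior count of 2, bars are the group mean and error bars 1 SD, and each panel has its own y scale. Tacr3 was lower in TBI rats at both days, Oprl1 was apart at day 14, and Chrm1, Chrm3 and Htr1a lay below sham in all TBI rats at day 1, with TBI day 14 near sham.

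Chrm3 and Htr1a were called lower at day 1, Chrm1 missed the threshold, and all 3 were near sham levels at day 14. Chrm3 encodes the M3 receptor. It was at 78.6 and 107 CPM in sham rats and at 23.0, 44.3, 39.6 and 65.8 CPM in TBI rats at day 1. The groups did not overlap, and TBI day 1 replicate 1 was the lowest. Its log2 fold change was -1.10 (SE 0.27, adjusted p = 0.0113), 53.4% lower. Without sham day 1 replicate 2 it was -0.86 and not called. At day 14 Chrm3 was at 114, 98.8, 136 and 109 CPM in sham and 122, 105, 112 and 118 CPM in TBI rats. The TBI values all lay within the sham range, and the fitted difference had a 95% interval of -0.49 to 0.48. The difference between the effects at the 2 days was -1.10 on the log2 scale (SE 0.36) and missed the threshold (adjusted p = 0.0997). By DESeq2 that difference passed, with an adjusted p of 0.0428, and by edgeR without TBI day 1 replicate 4 (-1.38, adjusted p = 0.019). In edgeR the difference shrank to -0.86 without sham day 1 replicate 2. Without sham day 14 replicate 2 it was -1.04 (adjusted p = 0.18).

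Chrm1 encodes the M1 receptor, the main muscarinic receptor of forebrain principal neurons. It was at 129 and 137 CPM in sham and 23.0, 76.4, 87.9 and 92.1 CPM in TBI rats at day 1. All 4 injured rats lay below both sham rats, with TBI day 1 replicate 1 far below the other 3. The log2 fold change was -0.92 (SE 0.34, adjusted p = 0.0729) and was not called by edgeR. Chrm1 was called by DESeq2, with an adjusted p of 0.0401, and by edgeR without TBI day 1 replicate 1 (-0.63, adjusted p = 0.00849) or replicate 4 (-1.09, adjusted p = 0.0418). In edgeR it stayed uncalled with the day 1 rats fitted alone (-0.91, adjusted p = 0.271). The same held with choroid plexus markers as a covariate (-0.98, adjusted p = 0.0916). Without sham day 1 replicate 2 the Chrm1 log2 fold change was -0.88. At day 14 sham rats were at 131 to 185 CPM and TBI rats at 163 to 186 CPM, with a log2 fold change of 0.05 (95% interval -0.56 to 0.67).

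Htr1a had the largest fitted decrease of the tested receptors at day 1. It encodes the serotonin 1A receptor, which hyperpolarizes hippocampal pyramidal neurons. The sham day 1 rats were at 15.6 and 38.0 CPM and the TBI day 1 rats at 1.56, 6.29, 9.17 and 12.2 CPM. The groups did not overlap, and the sham rats lay far apart from each other. Fitted on the log2 scale, Htr1a changed by -1.87 (SE 0.49, adjusted p = 0.0159), 72.7% lower. Without sham day 1 replicate 2, the higher sham rat, it was -1.09 and not called. At day 14 Htr1a was at 16.1 to 30.0 CPM in sham and 16.9 to 24.1 CPM in TBI rats, with a log2 fold change of -0.17 (95% interval -1.04 to 0.71). The difference between the effects at the 2 days was -1.70 on the log2 scale (SE 0.64, adjusted p = 0.159), and -0.92 (adjusted p = 0.596) without sham day 1 replicate 2.

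Htr2a encodes the serotonin 2A receptor, the target of classical psychedelics. It varied widely among injured rats, at 0.208, 1.70, 0.963 and 3.09 CPM at day 1 against 2.16 and 2.81 CPM in sham rats. The highest injured rat lay above both sham rats. At day 14 sham rats were at 1.56 to 5.08 CPM and TBI rats at 0.937 to 1.64 CPM, again with overlap. Its fitted log2 fold changes were -0.73 (SE 0.65, adjusted p = 0.457) at day 1 and -1.07 (SE 0.55, adjusted p = 0.456) at day 14. The day 1 value ran from -1.34 without TBI day 1 replicate 4, the highest injured rat, to -0.37 without TBI day 1 replicate 1, the lowest, and passed in neither case (adjusted p = 0.122 and 0.658).

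Counted together, 3 of the 9 tested receptors were lower at day 1 in edgeR's quasi-likelihood test (Chrm3, Htr1a and Tacr3) and none was called higher. Of all tested genes, 7.93% were called lower in that comparison. In 6 of the 9 receptors all injured rats lay below all sham rats, which held for 14.1% of all tested genes. All 9 log2 fold changes were below 0, with a median of -0.97, against 51.3% of all tested genes and a median of -0.02. At day 14, 2 of 9 receptors (Oprl1 and Tacr3) were called lower, against 0.365% of all tested genes, and 3 of 9 (Oprl1, Oprd1 and Tacr3) lay without overlap, against 5.86%. The median log2 fold change was -0.43 at day 14, against -0.03 for all tested genes.

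The day 1 count rests on 2 sham rats and on the spread borrowed from the other groups. With the day 1 rats fitted alone it was 0, with adjusted p from 0.115 for Chrm3 to 0.212 for Tacr3. In the fit over all rats it was 0 without sham day 1 replicate 2 and 5 without sham day 1 replicate 1, the library with choroid plexus markers. With the replicates 1 of both day 1 groups left out it was 6. At day 14 the count fell to 0 without sham replicate 2, sham replicate 4, TBI replicate 1 or TBI replicate 4, with adjusted p of Tacr3 and Oprl1 no higher than 0.0661. It fell to 1 without TBI replicate 3, where Oprl1 lost its call and Tacr3 kept it. The share of all tested genes called in these other fits is not set beside the counts here.

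**Figure D2:**
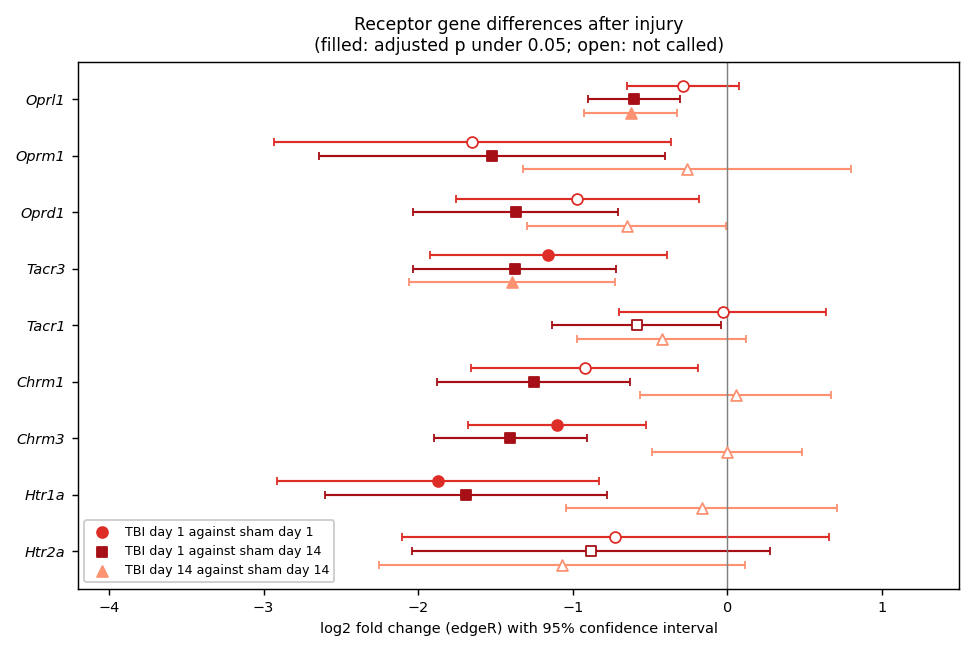
Fitted log2 fold changes of the 9 tested receptor genes with 95% intervals, for TBI against sham at day 1 (circles), TBI day 1 against sham day 14 (squares) and TBI against sham at day 14 (triangles). Filled symbols have an adjusted p under 0.05. The 7 filled squares lie between -0.60 and -1.69, and the day 14 triangles of Chrm1, Chrm3 and Htr1a lie between -0.17 and 0.05.

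The sham day 14 rats served as a second baseline for day 1, since they are 4 and none carried choroid plexus markers. This comparison shares its TBI rats with the day 1 comparison and its sham rats with the day 14 comparison. Against them 7 of the 9 receptors were called lower at TBI day 1, where 21% of all tested genes were called lower, and 6 of 9 lay without overlap, where 17.8% did. Chrm3 had a log2 fold change of -1.40 (adjusted p = 0.000217), Tacr3 of -1.38 (adjusted p = 0.00219) and Oprd1 of -1.37 (adjusted p = 0.00241). Oprl1 was at -0.60 (adjusted p = 0.00283), Chrm1 at -1.25 (adjusted p = 0.003) and Htr1a at -1.69 (adjusted p = 0.00498). Oprm1, at -1.52, had the highest adjusted p of those called, at 0.0273, and was not called without TBI day 1 replicate 3 or sham day 14 replicates 2 or 3 (at most 0.0943). Tacr1 (-0.59, adjusted p = 0.0721) and Htr2a (-0.88, adjusted p = 0.199) were not called by edgeR, and DESeq2 called Tacr1 (adjusted p = 0.0493). Without TBI day 1 replicate 4 both passed in edgeR (Tacr1 at -0.74, adjusted p = 0.0403, and Htr2a at -1.50, adjusted p = 0.0373), and Tacr1 also without sham day 14 replicate 1 (adjusted p = 0.0394). Over the 14 fits with 1 rat left out, Tacr1 stayed uncalled in 12 (edgeR adjusted p up to 0.201). Htr2a stayed uncalled in 13 (edgeR adjusted p up to 0.585). With each sample left out in turn, the count of called receptors stayed between 6 and 9. The share of all tested genes called in those fits is not given here.

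Other markers also set the day 1 libraries apart from those of sham day 14. Those of thalamus, which borders the dissected tissue, summed to 81.7 to 102 CPM in TBI day 1 and 75.2 to 104 CPM in sham day 1 rats, against 45.9 to 57.3 CPM in sham day 14 rats. Those of CA1 pyramidal neurons summed to 308 to 623 CPM in TBI day 1 and 253 and 672 CPM in sham day 1 rats, against 790 to 916 CPM in sham day 14 rats. The part of either in the comparison with sham day 14 was not tested.

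The sham groups themselves were compared. No receptor was called by edgeR between sham day 1 and sham day 14, where 19.1% of all tested genes were. The count was also 0 of 9 at an unadjusted p under 0.05 in edgeR and at the adjusted threshold in limma-voom and DESeq2. The share of all tested genes under those other settings is not given here. With 2 sham day 1 rats, these counts do not show that the sham groups were alike. The log2 differences, sham day 1 minus sham day 14, ran from -0.56 for Tacr1 (95% interval -1.24 to 0.12) to 0.18 for Htr1a (-0.88 to 1.24). Of the 9 receptors, 7 were below 0 and Oprm1 and Htr1a above it. Their median was -0.30, against 0.02 for all tested genes. TBI day 1 against sham day 14 gave -0.59 for Tacr1. For Oprl1 the sham difference was -0.32 and that of TBI day 1 against sham day 14 was -0.60. The part of this shift in the calls against sham day 14 was not tested. Between the TBI effects at the 2 days, 0 of 9 receptors were called by edgeR or limma-voom and 1, Chrm3, by DESeq2, with 3.68% of all tested genes called by edgeR. Chrm1, Chrm3 and Htr1a were the 3 with an unadjusted p under 0.05 and a lower value at day 1, which held for 8.8% of all tested genes.

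Several lists of neuronal markers moved with the day 1 results. All 3 tested markers of dentate granule cells (Prox1, C1ql2 and Stxbp6, of 5 listed) were called lower at day 1. Their list had a summed level of 127 and 331 CPM in sham rats and 26.7 to 121 CPM in TBI rats, lowest in TBI day 1 replicate 1. Of the markers of glutamatergic neurons 2 of 4 (Slc17a7 and Neurod2) were called lower, with summed levels of 3734 and 4278 CPM in sham and 1351 to 2962 CPM in TBI rats. Of the interneuron markers 7 of 10 tested were called lower, including Gad1 and Slc32a1, with 698 and 899 CPM in sham and 417 to 553 CPM in TBI rats, and Npy was at 0 in every library. Pan-neuronal markers were called lower for 2 of 8. The CA1 list was not lower, as its sums above overlapped and 0 of 3 tested markers were called by edgeR. Markers of CA3 pyramidal neurons summed to 206 and 219 CPM in sham and 66.0 to 133 CPM in TBI rats, without overlap. On mean log2 CPM the CA3 list overlapped slightly, at 3.46 and 3.93 in sham and 3.03 to 3.47 in TBI rats. The summed markers of astrocytes, microglia and blood leukocytes lay above sham without overlap in the same rats. Those of oligodendrocytes overlapped, at 10528 and 14580 CPM in sham and 4070 to 15514 CPM in TBI rats. The sums of oligodendrocyte precursors and endothelial cells overlapped too. On mean log2 CPM the astrocyte list also overlapped, at 9.03 and 9.65 in sham and 9.34 to 9.73 in TBI rats. Astrocyte markers summed to 6672 and 10656 CPM in sham and 13655 to 20060 CPM in TBI rats, with 1 of 8 (Gfap) called higher, and microglia markers to 303 and 512 CPM in sham and 624 to 765 CPM in TBI rats, with 3 of 8 higher and 2 lower. Blood leukocyte markers summed to 0.646 and 9.21 CPM in sham and 18.8 to 38.6 CPM in TBI rats, with 2 of 3 higher (S100a8 and S100a9). The part of these markers in the receptor results was not tested.

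At day 14 no list of neuronal markers held a called gene, but interneuron markers summed to 739 to 931 CPM in sham and 641 to 668 CPM in TBI rats without overlap, with a median log2 fold change of -0.33 and 0 of 10 called. By sums, CA3 markers were also lower without overlap, at 278 to 322 CPM in sham and 251 to 268 CPM in TBI rats. CA1 sums were higher without overlap, at 790 to 916 CPM in sham and 928 to 1117 CPM in TBI rats. On mean log2 CPM the groups overlapped for CA3 and for CA1. Tacr3 and Oprl1 were lower in the same rats. Thalamus markers summed to 45.9 to 57.3 CPM in sham and 78.3 to 103 CPM in TBI rats at day 14, with 1 of 5 called higher (Prkcd). Microglia markers were called higher for 7 of 8, and astrocyte markers summed to 5813 to 7144 CPM in sham and 9440 to 13662 CPM in TBI rats. The part of these in the receptor results was not tested either.

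**Figure D3:**
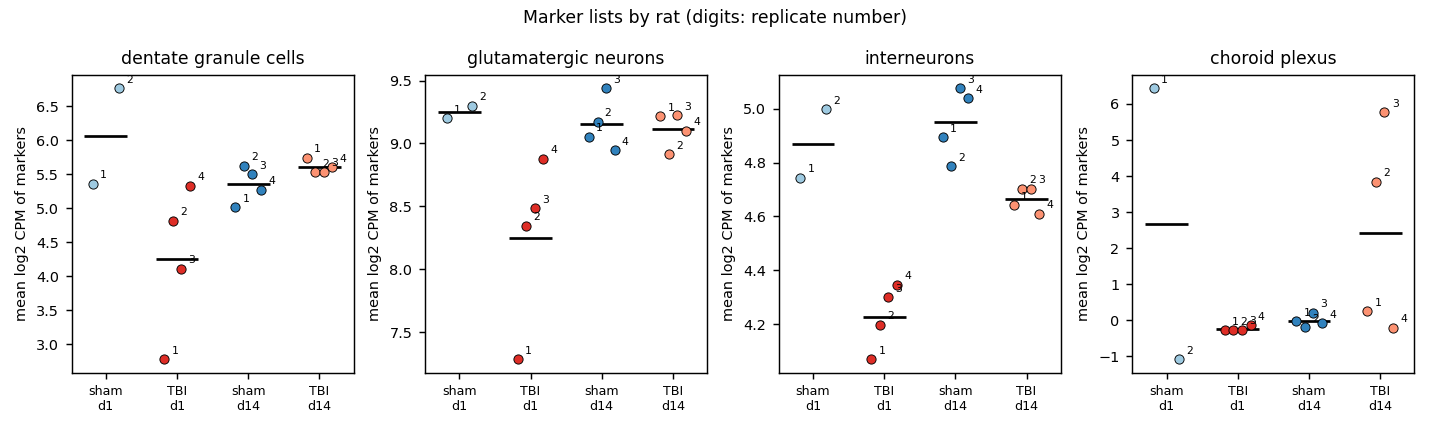
Mean log2 CPM of the markers of dentate granule cells, glutamatergic neurons, interneurons and choroid plexus. Each point is 1 rat, with its replicate number, and bars are group means. By group mean the neuronal lists were lowest at TBI day 1, with replicate 1 the lowest rat. For dentate granule cells the TBI day 1 rats (2.78 to 5.33) overlapped the sham day 14 rats (5.01 to 5.63). Choroid plexus markers stood out in sham day 1 replicate 1 and TBI day 14 replicates 2 and 3.

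The receptors varied together within groups to different degrees. Over the 14 rats, with each group's mean subtracted from log2 CPM, Pearson's r was 0.92 for Chrm1 with Htr1a, 0.89 for Chrm3 with Htr1a and 0.94 for Chrm3 with Htr2a. Tacr3 had an r of 0.67 with Htr1a and 0.33 with Chrm3. Oprl1 had an r of -0.27 with Chrm3, -0.25 with Htr2a and -0.19 with Chrm1. These values are a description. All genes share the same libraries, and much of the pattern rests on TBI day 1 replicate 1, the lowest library for most of the receptors but not for Oprl1 or Oprd1. Without it, a choice made after seeing the data, r over 13 rats was 0.72 for Chrm1 with Htr1a, 0.69 for Chrm3 with Htr1a, 0.84 for Chrm3 with Htr2a, 0.28 for Chrm1 with Chrm3 and 0.25 for Chrm1 with Htr2a. That of Tacr3 fell to 0.43 with Htr1a and changed sign to -0.23 with Chrm3, and that of Oprl1 was 0.02 with Chrm1.

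**Figure D4:**
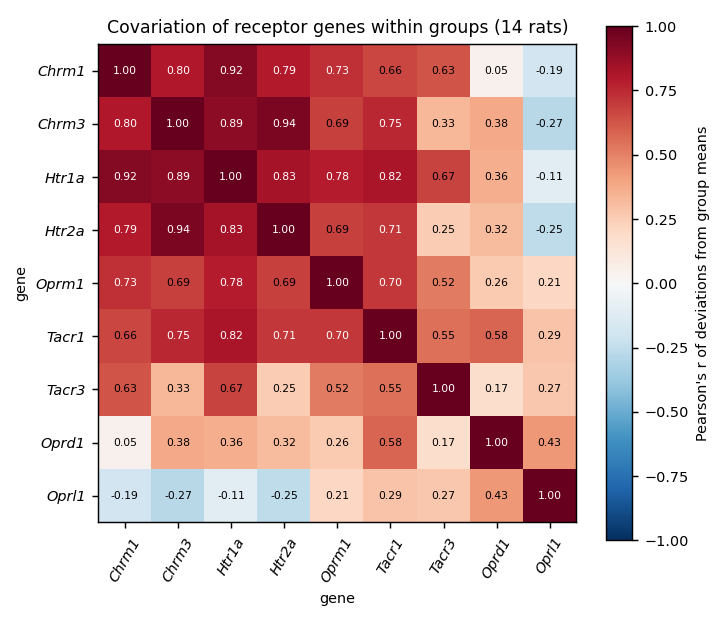
Pearson's r between receptor genes over 14 rats, computed on log2 CPM after subtracting group means. Red is positive and blue negative. Chrm1, Chrm3, Htr1a and Htr2a form a block of r from 0.79 to 0.94, which spans 0.25 to 0.84 without TBI day 1 replicate 1, and Oprl1 has values of 0.43 or less with every other receptor.

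By levels, group differences included, a few genes were among the 3 tested genes most like a receptor both over all 14 rats and over the 13 without TBI day 1 replicate 1. For Tacr3 these were Klhl14 (r = 0.91 over 14 rats and 0.899 over 13) and Hap1 (0.893 and 0.86). For Oprl1 they were Sgsm1 (r = 0.883 and 0.899) and again Hap1 (0.871 and 0.967). For Chrm3 they were Sort1 (r = 0.984 and 0.97) and Chst15 (0.979 and 0.983), and for Tacr1 Gpr101 (0.888 and 0.878) and Tmx1 (0.852 and 0.777). For Htr2a it was Mmd (0.931 and 0.849) and for Oprm1 LOC365985 (0.947 and 0.903). The lists of Oprd1, Chrm1 and Htr1a were replaced as a whole. Chrm1 was most like Cadm3 over 14 rats (r = 0.981) and Chst1 over 13 (r = 0.981), and Htr1a most like Fam120b over 14 (r = 0.983) and Mfsd6 over 13 (r = 0.976).

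The ligand genes were considered next. Pdyn encodes prodynorphin, the precursor of dynorphin, and is abundant in dentate granule cells. It was at 46.7 and 127 CPM in sham and 1.97, 36.7, 20.5 and 31.7 CPM in TBI rats at day 1. The groups did not overlap, and TBI day 1 replicate 1 held almost none. Its log2 fold change was -1.93 (SE 0.60, adjusted p = 0.0377), and at day 14 it was 0.08 (SE 0.51). Its day 1 call was lost without sham day 1 replicate 2 (-1.03, adjusted p = 0.477), and its adjusted p was 0.0507 to 0.0754 without TBI day 1 replicate 3, sham day 14 replicate 2 or TBI day 14 replicate 1. Pdyn was the 1 opioid peptide gene of 4 called at day 1.

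Pnoc encodes the precursor of nociceptin, the ligand of Oprl1. It was at 9.86 and 8.67 CPM in sham and 10.5, 12.7, 22.2 and 19.0 CPM in TBI rats at day 1, all above the sham rats. The log2 fold change of 0.80 (SE 0.27) had an adjusted p of 0.0516. Against sham day 14 it passed, at 0.61 (SE 0.21, adjusted p = 0.0306), but not without TBI day 1 replicates 3 or 4 or sham day 14 replicates 1 or 3 (at most 0.116). Penk, the enkephalin precursor gene, was at 29.8 to 46.8 CPM in sham and 22.4 to 30.9 CPM in TBI rats at day 14 (log2 fold change -0.69, adjusted p = 0.336), and Pomc, the precursor gene of beta-endorphin, was not called.

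Of the tachykinin genes other than the pair above (Tac1, Tac3, Tac4 and the third receptor gene Tacr2), none of 4 was called by edgeR against sham of the same day, with 0 at an unadjusted p under 0.05 at day 1 and 1 at day 14. Tac3 encodes neurokinin B, the preferred ligand of the Tacr3 receptor. Its fitted log2 difference was 0.05 at day 1 (SE 0.32) and 0.05 at day 14 (SE 0.26). Tac1, the substance P gene, was at -0.08 (SE 0.60) and -0.75 (SE 0.48). Tac4, the hemokinin gene, was at 2.18 at day 14 (SE 0.61, adjusted p = 0.0629), on 1 to 6 counts in sham and 10 to 23 in TBI rats. Against sham day 14, Tac4 was higher at TBI day 1 (2.58, adjusted p = 0.00286) and Tacr2 lower (-1.43, adjusted p = 0.0462). For both genes the groups overlapped, and Tac4 rested on the same 1 to 6 counts in the sham day 14 rats. The Tacr2 call was lost without any 1 of 9 libraries, with a highest adjusted p of 0.129 without sham day 14 replicate 3.

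Other amine receptor genes were mostly not called at day 1. Of 10 tested serotonin receptor genes, Htr2b alone was called, and higher, with 4 and 0 counts in sham rats and 31, 49, 68 and 35 counts in TBI rats (log2 fold change 4.26, SE 1.04, adjusted p = 0.0111). Of 8 adrenergic receptor genes, Adrb3 alone was called, and lower, from 2.26 and 1.29 CPM to at most 0.413 CPM (log2 fold change -3.42, SE 0.63, adjusted p = 0.00189). Its 4 injured rats had 1, 2, 9 and 2 counts. Of the other muscarinic (2 tested), dopamine (3) and histamine (3) receptor genes, none was called by edgeR against sham of the same day. At an unadjusted p under 0.05 these lists held 0, 1 and 2 at day 1. Against sham day 14, the serotonin receptor genes held 1 call higher (Htr2b) and 5 lower, among them Htr4 (-1.47), Htr5b (-1.70) and Htr7 (-1.21). In the same comparison the adrenergic list held 5 lower, among them Adra2c (-1.41), Adrb1 (-0.71) and Adra1d (-1.51), although 3 of the 8 (Adra2a, Adra2c and Adrb1) were already lower in sham day 1 than in sham day 14 rats. Single genes of other lists were also lower there, Chrm4 (-0.60), Drd1 (-0.84) and Hrh2 (-0.91). Hrh2 was not called without TBI day 1 replicates 2 or 4 or sham day 14 replicate 3 (at most 0.0926).

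Adra2a, which encodes the alpha-2A adrenergic receptor, was called lower at day 14. It was at 12.4 to 18.4 CPM in sham and 8.49 to 9.98 CPM in TBI rats (log2 fold change -0.76, SE 0.17, adjusted p = 0.0119). The groups did not overlap. Adra2a was not called without sham day 14 replicate 4 (-0.66, adjusted p = 0.055) or without the 3 libraries with choroid plexus markers (-0.70, adjusted p = 0.142).

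Genes that make, carry or break down amines held 1 call at day 1. Slc18a3, which encodes the vesicular acetylcholine transporter, was the 1 of 13, at 0.431 and 0.646 CPM in sham and 5.86, 5.97, 3.12 and 3.45 CPM in TBI rats (log2 fold change 3.07, SE 0.51, adjusted p = 0.000879). All injured rats lay well above both sham rats. Against sham day 14, Slc18a3 was higher (3.26) and Ache, the acetylcholinesterase gene (-1.06), and Slc18a2, the vesicular monoamine transporter gene (-0.84), were among 3 lower.

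Of 15 genes for G proteins and their effectors, 4 were called lower and 2 higher at day 1. Kcnj9, a subunit gene of the potassium channel that Gi/o receptors open, fell from 76.2 and 94.0 CPM to 46.7 to 55.0 CPM (log2 fold change -0.76, SE 0.13, adjusted p = 0.000947). Gnaz (-0.78) and Gnao1 (-0.74), which encode Gi/o family alpha subunits, were also lower, and Plcb3, a phospholipase C gene, was higher (1.14, SE 0.22, adjusted p = 0.00239). Against sham day 14 the list held 3 higher, among them Gnai3 (1.08) and Gnai2 (0.90), and 5 lower. In sham day 1 against sham day 14 rats 2 of its genes were higher (Gnai3 and Gnaz). Of 17 genes for regulators of G protein signaling, receptor kinases and arrestins, Rgs16 was higher (1.13, SE 0.31, adjusted p = 0.0221) and Rgs10 lower at day 1. Against sham day 14 the list held 4 higher (Rgs16, Rgs19, Rgs4 and Arrb2) and 2 lower. Of these 4, all but Rgs16 were also called higher between the sham groups (day 1 against day 14), where 6 of the 17 genes were called higher and 0 lower, and 10 and 2 at an unadjusted p under 0.05.

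Sham day 1 replicate 2 decided several of these day 1 calls too. Without it the adjusted p was 0.114 for Htr2b (log2 fold change 3.23), 0.054 for Plcb3 (0.84), 0.225 for Gnaz (-0.54), 0.396 for Gnao1 (-0.43), 0.0736 for Rgs16 (1.35) and 0.0584 for Rgs10 (-0.73). Without sham day 1 replicate 1 the remaining sham rat had 0 counts of Htr2b. Adrb3, Slc18a3 and Kcnj9 kept their calls with each rat left out in turn, and Adrb3 moved to -4.44 without TBI day 1 replicate 3, its highest injured rat. Rgs16 was also not called without sham day 1 replicate 1 (0.94, adjusted p = 0.11), and Gnao1 not without TBI day 1 replicates 2 or 3 (adjusted p = 0.0505 and 0.0509).

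Rgs10 was the gene of these lists with calls in both directions. It was at 80.7 and 118 CPM in sham and 36.7, 46.3, 48.4 and 63.7 CPM in TBI rats at day 1 (log2 fold change -1.03, SE 0.19, adjusted p = 0.00178). At day 14 it was at 57.1 to 68.2 CPM in sham and 87.7 to 106 CPM in TBI rats (0.63, SE 0.16, adjusted p = 0.032). The day 14 call was lost without any 1 of 7 of the 8 day 14 libraries (adjusted p up to 0.101). TBI and sham rats did not overlap at either day. The difference between the effects at the 2 days was -1.66 on the log2 scale (SE 0.24, adjusted p = 0.00259). The sham groups differed as well, with both sham day 1 rats above all sham day 14 rats. The highest TBI day 1 rat lay within the sham day 14 range. The part of this sham difference in the Rgs10 results was not tested.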

How the data were processed

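RNA was sequenced from the hippocampus of 14 rats. Per the labels and the methods of the study, the authors made single-end 50-base libraries with a stranded poly(A) kit, used STAR 2.4.2a to align reads to rn5 and featureCounts 1.5.0 to count them per UCSC gene. The strand setting of the counting is not given in the sources used here. In the newer build GRCr8, Oprm1 overlaps Ipcef1, a lncRNA and a pseudogene, and Chrm3 overlaps a lncRNA, so their counts are less certain. The deposited values are raw counts per gene symbol, without normalization. Symbols were used as given, and 2 of them appear more than once in the table.

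All 14 samples entered a single edgeR 4.0.16 quasi-likelihood model (R 4.3.3) that gave each group its own mean, after TMM scaling and edgeR's default filter by group, and tests were two-sided. P-values were adjusted by Benjamini-Hochberg over the 12875 genes tested, with a threshold of 0.05. P-values measure the spread between these rats, and the 2 sham day 1 rats share the spread of the other groups. CPM use TMM-scaled library sizes, and log2 CPM a prior count of 2. The script was tested on simulated data. Alternatives were limma-voom (limma 3.58.1), DESeq2 1.42.0, other scaling factors, filters, thresholds, baselines and sample sets, a choroid plexus covariate and the replicate block.

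The members, the gene lists and the marker lists were chosen with earlier results of these data known. Named genes are all members, called genes of the related lists (at most 4 per list and comparison, by smallest p), their peptide genes, and the 3 genes most correlated with each tested member (the leading one for those with fewer reads). Some genes that this rule covers are not reported here. Comparing the counts of 19 pairs of same-group samples gave chi-square values of 12.9 to 168 per degree of freedom, so none was a library deposited more than once. Upstream sequences came from RefSeq tables of GRCr8, where 10 of 10 members had a gene entry and 6 an upstream window. They were read in Python 3.11.15 with pandas 2.3.3, and figures were drawn with matplotlib 3.10.9. The H3K4me3 peak files were not used, because assigning peaks to these genes needs an annotation of rn5.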

Additional observations from a re-analysis of the deposited data

Results flagged for a closer look

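In Chrm1, TBI day 1 replicate 1 lay far from the other 3 rats of its group, at a log2 CPM of 4.53 with the nearest at 6.26. That gap was 0.864 of the range of the group (Dixon's critical value for 4 samples is 0.829). It was the 1 flag among 27 such checks, over 9 genes and 3 groups of 4, and chance flags about 1 in 20. Without that rat, Chrm1 had a log2 fold change at day 1 of -0.63 (adjusted p = 0.00849 by edgeR) against -0.92 with it.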

How the results depend on the processing

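Of the comparisons of the receptors' counts of calls, that against sham day 14 stayed within 1.5 times its value of 7 under every alternative run. The count of 3 at day 1 became 5 with DESeq2, 0 at an adjusted p under 0.01, 0 with only the groups compared, 7 with all 6 sham rats as 1 baseline, and, in choices made after seeing the data, 6 without the replicates 1 of both day 1 groups and 5 without the 3 libraries with choroid plexus markers. Leaving out each rat gave 0 to 5. The count of 2 at day 14 became 0 at an adjusted p under 0.01, 0 with the choroid plexus covariate, 1 (Tacr3) with all 6 sham rats and 1 (Oprl1) without the 3 libraries, and 0 to 2 with each rat left out. The difference between the TBI effects went from 0 to 1 (Chrm3) with DESeq2 and to 2 (Chrm3 and Htr1a) without the replicates 1, and ran from 0 to 1 with each rat left out. Without 1 of the 2 sham day 1 rats the other is assumed to vary like the other groups. The sham comparison stayed at 0. For some of these settings the share of all tested genes called is not given here, so the receptor counts are a description. The cause of these changes was not tested.

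The replicate numbers did not pair the samples, since the correlation of same-number deviations ran from -0.348 to 0.243 over 18 pairs and exceeded 0.1 in 5. With the replicate block, the counts were 4 at day 1 (Chrm1 added, log2 fold change -1.19), 2 at day 14 and 7 against sham day 14. The share of all tested genes called with the block is not given here.

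Signs changed in 17 cases, all in values that were not called. With each rat left out in turn, the log2 values ran from -0.066 to 0.093 for Chrm3 at day 14, from -0.37 to 0.43 for Tacr1 at day 1, from -0.47 to 0.054 for Oprm1 at day 14, from -0.047 to 0.11 for Chrm1 at day 14 and from -0.085 to 0.65 for Tacr3 in the difference between days. Chrm3 at day 14 went from near 0 to 0.0057 with limma-voom, 0.017 with at least 10 counts in every sample, 0.0019 with the replicate block, 0.092 with the choroid plexus covariate, 0.031 with only the groups compared, 0.093 with all 6 sham rats and 0.093 without the 3 libraries. Htr1a at day 14 went to 0.090 with the covariate.

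Counts for all genes moved by over 1.5 times in some fits. At day 1, where 1437 genes were called higher and 1021 lower, 551 and 97 were called with only the groups compared, 788 and 299 at an adjusted p under 0.01, and 2332 and 2066 with all 6 sham rats. At day 14, where 524 were higher and 47 lower, 912 and 204 were called with only the groups compared, 348 and 18 at an adjusted p under 0.01, and 674 and 119 with DESeq2.

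Depth limits Oprk1 (at most 12 counts), Oprd1 (at most 33) and Oprm1 (at most 51) most.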
